A study of Mus musculus with 45 samples.

Results

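The genes described here are the nuclear receptors for retinoic acid (RA), Rara, Rarb and Rarg, the retinoid X receptors Rxra, Rxrb and Rxrg, and the cofactor genes Ncor1 and Nrip1. They were taken by symbol, as 8 of 33924 genes listed in each RNA-seq table, and all 8 varied between samples in both tables. The samples are mouse embryonic stem cells (ESCs) of strain 129. The methods name the parent line as D3, grown without feeder cells. In ΔG cells a GFP-IRES-Puro cassette takes the place of the body of the long non-coding RNA gene 5430416N02Rik, and in ΔPG cells a PGK-puro cassette stands in for promoter and body together. Heterozygous (het) cells carry 1 such allele and homozygous (hom) cells carry the deletion on both alleles, so every group carries at least 1 deleted allele and an unedited line is not part of these comparisons. Cells were kept undifferentiated (ES, with DMSO as the solvent control) or treated with 2 µM RA for 48 h. Each of the 8 groups has 3 samples, and the 24 RNA-seq samples form 1 table of 12 ΔG samples and 1 of 12 ΔPG samples. The labels do not say from which clone a sample was made, so clone and genotype cannot be told apart.

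RA is a small lipophilic hormone that drives ESCs out of the undifferentiated state. It binds RA receptors (RARs), which sit on DNA as heterodimers with retinoid X receptors (RXRs) at direct repeats of a short half-site. Without ligand the pair recruits corepressors such as Ncor1, and with ligand it recruits coactivators, while Nrip1 is a corepressor that binds receptors carrying ligand and is itself a known RA-induced gene. Rarb is the textbook example of an RA target within its own receptor family.

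The promoter of Rarb is shown because it holds the only direct repeat of this kind that a search of the members' promoters found. The search covered windows from 250 bases before to 50 bases after each RefSeq transcription start (GRCm38.p6), and all 8 members matched, with 17 windows. The half-site searched was AGGTCA or one of its variants (AGTTCA or else GGGTCA or else GGTTCA), on both strands, as direct repeats spaced by 1, 2 or 5 bases (DR1, DR2 and DR5). The search was set up after the Rarb promoter had been read. A DR5 match stood in 0.0974% of 32851 windows of all genes, a DR2 match in 0.268% and a DR1 match in 0.222%. Among the members, the Rarb window at chr14:16575427-16575726, on the minus strand, held a DR5 match from base -53 to base -37 relative to the start. The other 7 members had no match in these windows. The capitals mark the match.
Rarb promoter: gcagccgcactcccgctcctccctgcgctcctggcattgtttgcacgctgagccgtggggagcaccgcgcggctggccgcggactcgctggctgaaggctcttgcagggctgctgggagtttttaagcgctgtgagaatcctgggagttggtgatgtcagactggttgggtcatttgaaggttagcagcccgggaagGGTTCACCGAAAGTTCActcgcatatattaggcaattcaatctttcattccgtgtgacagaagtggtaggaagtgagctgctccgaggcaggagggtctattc

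Expression is given as regularized log (rlog) values, which are log2-scaled and shrink low genes, and the tables were normalized separately, so each comparison stayed within 1 table. Because they carry no counts, the depth of the samples is unknown. Every sample correlated best with its own group, and the least alike was replicate 1 of the RA-treated hom ΔPG cells, with a mean r of 0.862 to its group. 5430416N02Rik was lower in hom than in het cells, as labelled, with differences of -2.79 and -2.75 in ES and RA ΔG cells and of -2.30 and -1.81 in ES and RA ΔPG cells. Of 7 markers of undifferentiated ESCs, 6 were measured, and all 6 were lower after RA in each of the 4 comparisons, while 6 of 6 extraembryonic endoderm markers were higher. In these bulk samples, fewer cells of a type and less RNA per cell cannot be told apart. The methods call the 3 samples of a group biological replicates.

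RA changed the receptor genes in both directions. Rarb, Nrip1 and Rxra rose and Rarg fell in het and hom cells of both lines, and Ncor1 was lower by less than 0.5 in the values as deposited. A gene was called when limma gave a Benjamini-Hochberg adjusted p under 0.1 over all genes and a log2 difference over 0.5 in size. In het ΔG cells 7 of the 8 genes were called, 6 higher and 1 lower, against 29.5% of all 22048 genes tested (17.7% higher and 11.7% lower). In hom ΔG cells 6 were called, 5 higher and 1 lower, against 29.2% (17.0% and 12.1%). In het ΔPG cells 4 were called, 3 higher and 1 lower, against 31.6% of 21979 genes (18.0% higher and 13.6% lower). In hom ΔPG cells 4 were called, 3 higher and 1 lower, against 27.8% (16.5% and 11.3%), and all 8 had an adjusted p under 0.1, against 52.0%. Over all genes, quantile normalization evened the directions, to 3042 higher and 3304 lower in het ΔG (3911 and 2588 as deposited), 2941 and 3305 in hom ΔG (3759 and 2675) and 2864 and 2960 in hom ΔPG cells (3634 and 2482). The RA and ES samples did not overlap for 8 genes in het ΔG cells, 8 in hom ΔG cells, 6 in het ΔPG cells and 8 in hom ΔPG cells, where 54.5%, 52.6%, 56.1% and 52.7% of all genes did not overlap. With 3 samples against 3, an exact permutation test of a single gene cannot go below p = 0.1, so the calls rest on the fit across all genes. For Rarb, Nrip1, Rxra and Rarg, 256 of 256 values under the alternatives kept their call, counted per gene, comparison and alternative.

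**Figure D1:**
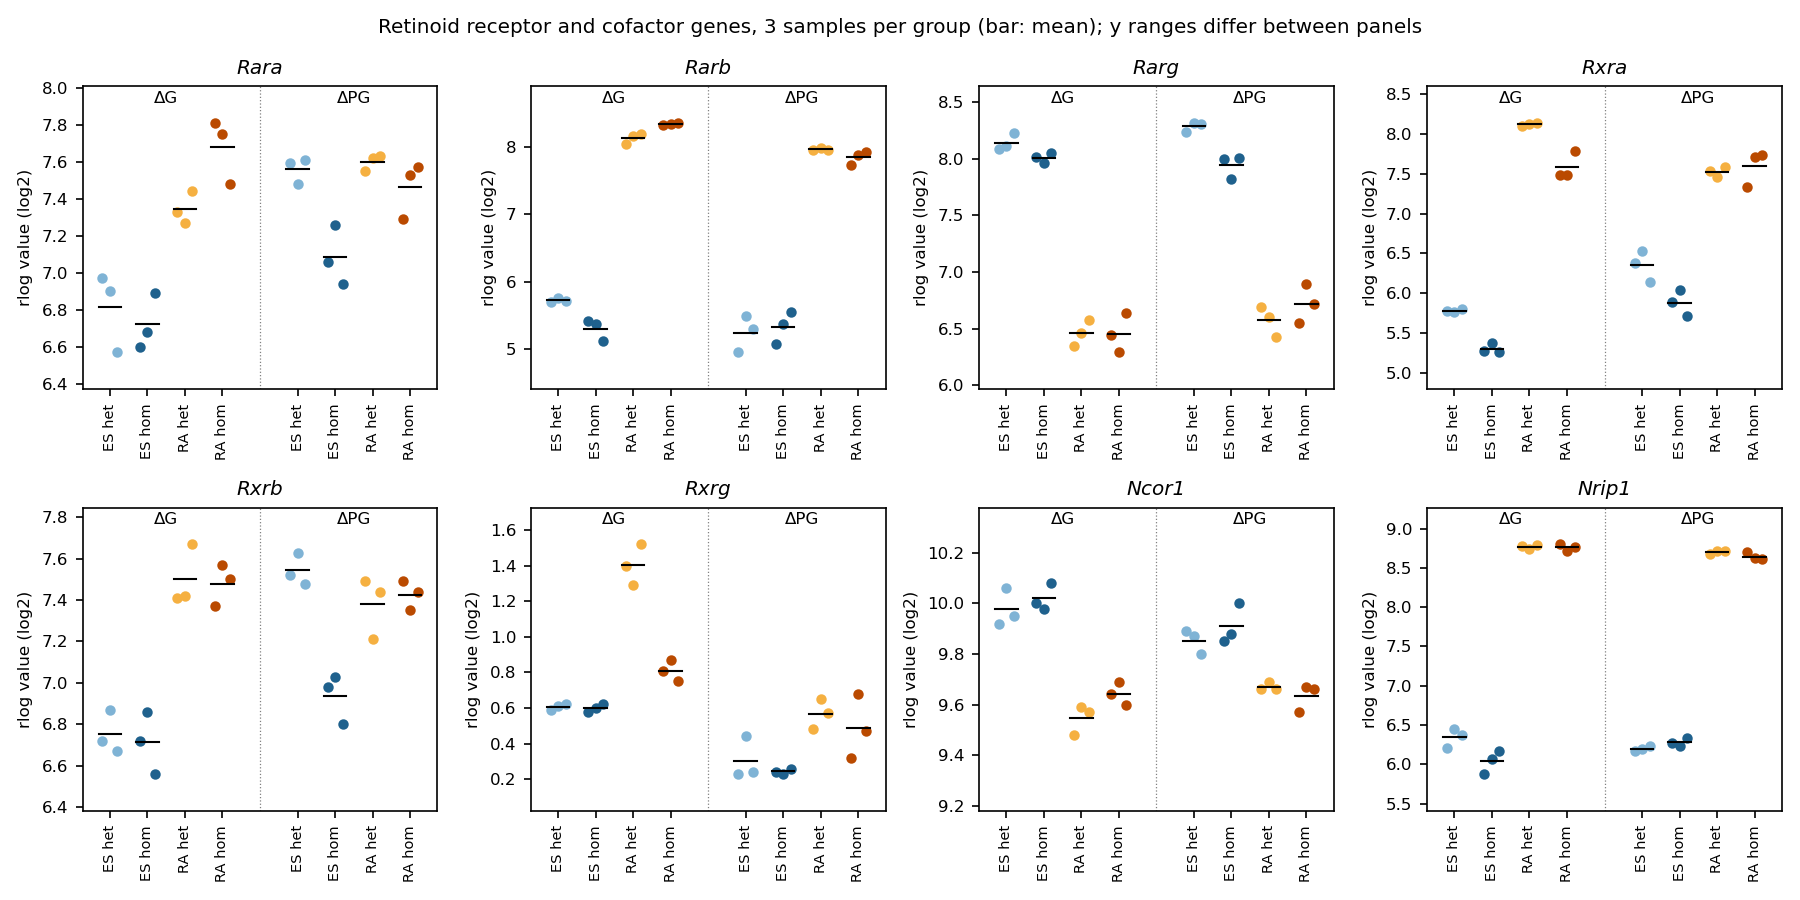
The rlog value (log2 scale, y axis, a different range in each panel) of the 8 genes in each sample, by group on the x axis, with 3 points per group and a bar at the mean, ΔG on the left and ΔPG on the right of each panel. Rarb, Nrip1 and Rxra sit higher and Rarg lower in RA than in ES samples of both lines.

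Rarb encodes RAR beta and lies at chr14:17263356-17651381 on the minus strand (NCBIM37, GENCODE models). In het ΔG cells its rlog values were 5.70, 5.75 and 5.72 in ES and 8.05, 8.17 and 8.19 in RA samples. In hom ΔG cells they were 5.42, 5.37 and 5.12 in ES and 8.32, 8.34 and 8.36 in RA samples. All RA samples lay far above all ES samples, and in RA the hom samples lay above the het samples. The rise was 2.41 ± 0.08 (SE, adjusted p = 1.27e-11, limma), or 5.31-fold, in het ΔG cells and 3.04 ± 0.09 (adjusted p = 9.46e-15, limma), or 8.23-fold, in hom ΔG cells. In ΔPG cells the ES values were 4.95, 5.49 and 5.29 in het and 5.08, 5.37 and 5.55 in hom samples, and the RA values were 7.96, 7.99 and 7.95 in het and 7.73, 7.88 and 7.93 in hom samples. The ES samples of the genotypes overlapped and the RA samples did not. In RA samples the hom minus het difference was only -0.12 (adjusted p = 0.413, limma) and was not called. No share of all genes without overlap is given for that comparison. The rise was 2.72 ± 0.13 (adjusted p = 1.34e-06, limma) in het and 2.52 ± 0.11 (adjusted p = 8.52e-09, limma) in hom ΔPG cells. Rarb is the gene whose promoter is printed above.

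Rarg encodes RAR gamma and lies at chr15:102065369-102087948 on the minus strand. In het ΔG cells its values were 8.09, 8.11 and 8.23 in ES and 6.35, 6.46 and 6.58 in RA samples, and in hom ΔG cells 8.02, 7.96 and 8.05 in ES and 6.44, 6.29 and 6.64 in RA samples. In het ΔPG cells they were 8.24, 8.32 and 8.31 in ES and 6.69, 6.60 and 6.43 in RA samples, and in hom ΔPG cells 8.00, 7.82 and 8.01 in ES and 6.55, 6.89 and 6.72 in RA samples. Rarg was thus high in ES and low in RA samples in every group, with no overlap. The fall was 3.21-, 2.94-, 3.29- and 2.34-fold in het ΔG, hom ΔG, het ΔPG and hom ΔPG cells, with log2 differences of -1.68, -1.56, -1.72 and -1.22 (adjusted p = 7.73e-10, 7.86e-11, 5.71e-07 and 5.62e-07, limma) and 95% intervals of -1.85 to -1.51, -1.75 to -1.37, -1.87 to -1.56 and -1.42 to -1.02.

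Rara encodes RAR alpha and lies at chr11:98789132-98836256 on the plus strand. Its ES values in ΔG cells were 6.97, 6.90 and 6.57 in het and 6.60, 6.68 and 6.89 in hom samples, and its RA values were 7.33, 7.27 and 7.44 in het and 7.81, 7.75 and 7.48 in hom samples. The genotypes overlapped in ES and lay apart in RA, with hom higher. Rara rose by 0.53 ± 0.10 (adjusted p = 0.000611, limma) in het and by 0.95 ± 0.10 (adjusted p = 2.18e-07, limma) in hom ΔG cells. The call in het ΔG cells lay near the limit of 0.5 and was lost without het RA replicate 3 (0.48), without het ES replicate 3 (0.41), with median centring (0.44), with a fold limit of 1.5, and with the trend of each sample with exonic GC content removed (0.30). In ΔPG cells the RA minus ES difference of Rara was 0.04 in het and 0.37 in hom cells (adjusted p = 0.495 and 0.00750, limma), neither over the limit of 0.5. The 95% intervals of these differences were -0.07 to 0.15 and 0.16 to 0.59. With the GC trend removed the differences were 0.33 in het and 0.16 in hom ΔPG cells (adjusted p = 9.17e-06 and 0.0919, limma), both under the limit. Over 11904 genes the RA minus ES difference had an r of -0.208 with exonic GC content in het and 0.121 in hom ΔPG cells.

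Levels of different genes can be set side by side only per length. As rlog values less the log2 of the exonic length in kb, the levels in ES samples of het ΔG cells ran from Ncor1 (6.29) and Rarg (6.11) over Rxrb (4.87), Rara (4.62), Rarb (4.01), Rxra (3.33) and Nrip1 (2.83) down to Rxrg (-0.59). In RA samples of the same cells the order was Rarb (6.41), Ncor1 (5.87), Rxra (5.67), Rxrb (5.62), Nrip1 (5.25), Rara (5.15), Rarg (4.43) and Rxrg (0.20), so that Rarg and Rarb changed places among the RARs. The sum of the RAR genes, each back-transformed from rlog and divided by its exonic length, was also split into shares. Rarg held the largest share in ES samples, 62.8 ± 3.23% (SD, n = 3) in het and 64.1 ± 0.705% in hom ΔG cells, and 59.0 ± 0.422% in het and 58.7 ± 3.77% in hom ΔPG cells. In RA samples Rarb held the largest share, 59.9 ± 1.22%, 59.7 ± 1.59%, 53.6 ± 0.244% and 52.1 ± 1.12% in the same order. The share of Rara stayed within 22.6% and 32.0% as group means over the 8 groups. These shares inherit the shrinkage of rlog values and the lengths of the annotated exons, and no test was run on them.

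**Figure D2:**
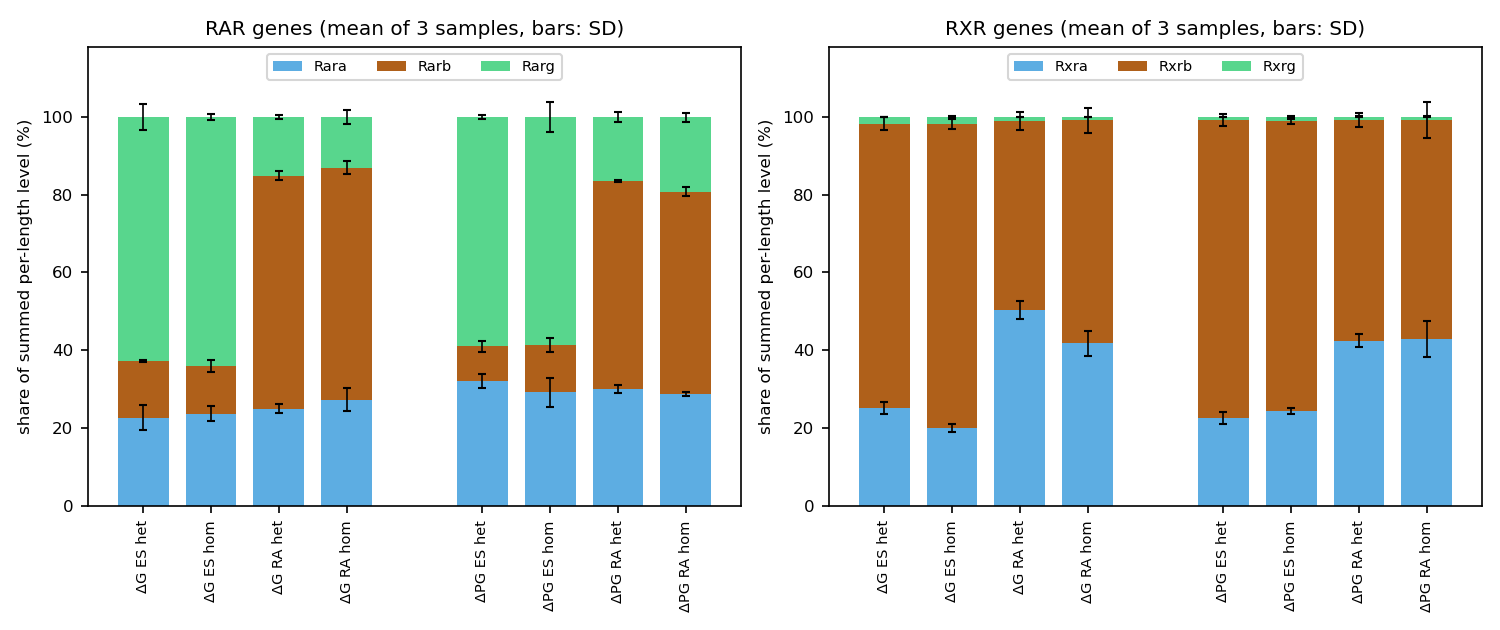
Mean share (%) of each gene in the summed per-length level of the RAR genes (left) and RXR genes (right) per group, with SD over 3 samples, on an axis from 0. Rarg makes up most of the RAR sum in ES and Rarb in RA samples, and Rxra gains share in RA samples.

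Rxra encodes RXR alpha and lies at chr2:27531960-27618477 on the plus strand. In het ΔG cells its values were 5.78, 5.76 and 5.81 in ES and 8.10, 8.13 and 8.14 in RA samples, and in hom ΔG cells 5.28, 5.38 and 5.26 in ES and 7.48, 7.48 and 7.79 in RA samples. In het ΔPG cells they were 6.38, 6.53 and 6.14 in ES and 7.53, 7.46 and 7.59 in RA samples, and in hom ΔPG cells 5.89, 6.04 and 5.71 in ES and 7.34, 7.71 and 7.74 in RA samples. Within each genotype and line the RA samples lay above the ES samples. Rxra rose by 2.34 ± 0.07 and 2.28 ± 0.10 in het and hom ΔG cells and by 1.18 ± 0.10 and 1.71 ± 0.12 in het and hom ΔPG cells (adjusted p = 9.97e-12, 2.28e-12, 2.80e-05 and 3.10e-07, limma). Its share of the summed per-length RXR level was 25.2 ± 1.61% in ES and 50.4 ± 2.31% in RA samples of het ΔG cells.

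Rxrb encodes RXR beta and lies at chr17:34168757-34175338 on the plus strand. In ΔG cells its values ran from 6.56 to 6.87 in the 6 ES samples and from 7.37 to 7.67 in the 6 RA samples, with the genotypes overlapping in each state. Rxrb rose by 0.75 ± 0.09 in het and 0.77 ± 0.09 in hom ΔG cells (adjusted p = 9.03e-06 and 1.41e-06, limma), and the hom difference was 0.49 with the GC trend removed, just under the limit. In ΔPG cells the het ES values were 7.52, 7.63 and 7.48, the hom ES values 6.98, 7.03 and 6.80, the het RA values 7.49, 7.21 and 7.44, and the hom RA values 7.49, 7.35 and 7.44. The hom ES samples thus stood below the other groups. The RA minus ES difference was -0.17 in het and 0.49 in hom ΔPG cells (adjusted p = 0.120 and 0.000258, limma), and the latter passed the limit of 0.5 without hom RA replicate 2 (0.53), hom ES replicate 1 (0.51) or hom ES replicate 2 (0.54). With the GC trend removed the difference in het ΔPG cells turned to 0.13.

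Rxrg, which encodes RXR gamma and lies at chr1:169528515-169569754 on the plus strand, had rlog values from 0.23 to 1.52 over all samples and did not reach the mean rlog value of 3 used as a filter on low values, which the other 7 genes passed. In ΔG cells the values were 0.59, 0.61 and 0.62 in het ES, 0.58, 0.60 and 0.62 in hom ES, 1.40, 1.29 and 1.52 in het RA and 0.81, 0.87 and 0.75 in hom RA samples. The RA samples lay above the ES samples, the het RA samples highest. It rose by 0.80 ± 0.11 in het ΔG cells (adjusted p = 5.02e-05, limma), and the differences in hom ΔG, het ΔPG and hom ΔPG cells were 0.21, 0.26 and 0.25 (adjusted p = 0.134, 0.0313 and 0.0623, limma). rlog values of such low genes are shrunk toward their mean, so these differences understate any change. The ES values in ΔG cells had an SD of 0.02 in either genotype. At such low values this spread may not measure the variation between replicates, which limits the SE and adjusted p of Rxrg.

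Nrip1 lies at chr16:76287645-76374072 on the minus strand. In het ΔG cells its values were 6.21, 6.45 and 6.37 in ES and 8.78, 8.74 and 8.79 in RA samples, and in hom ΔG cells 5.88, 6.07 and 6.17 in ES and 8.80, 8.72 and 8.76 in RA samples. In het ΔPG cells they were 6.17, 6.19 and 6.23 in ES and 8.68, 8.72 and 8.71 in RA samples, and in hom ΔPG cells 6.27, 6.23 and 6.34 in ES and 8.70, 8.62 and 8.61 in RA samples. The RA values of all 12 samples lay between 8.61 and 8.80 although the tables were normalized separately, and no ES value lay above 6.45. Nrip1 rose by 2.43 ± 0.07, 2.72 ± 0.08, 2.51 ± 0.04 and 2.36 ± 0.06 in het ΔG, hom ΔG, het ΔPG and hom ΔPG cells, which is 5.37-, 6.59-, 5.69- and 5.14-fold.

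Ncor1 lies at chr11:62129928-62272043 on the minus strand, and its exons overlap those of Pigl and Ttc19 on the other strand, from which strand-specific counting keeps its reads apart. Its rlog values ran from 9.48 to 10.08 over all samples. Its RA minus ES differences were -0.43, -0.38, -0.18 and -0.28 in het ΔG, hom ΔG, het ΔPG and hom ΔPG cells (adjusted p = 5.86e-06, 4.38e-07, 0.000988 and 0.000379, limma), with no overlap between ES and RA samples in any of the 4 comparisons. None of these passed the limit of 0.5. Over the alternatives they ran from -0.52 to -0.21, -0.46 to -0.17, -0.31 to 0.02 and -0.32 to -0.07 in the same order. The highest adjusted p among these was 0.0270, 0.00937, 0.646 and 0.259 (limma).

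**Figure D3:**
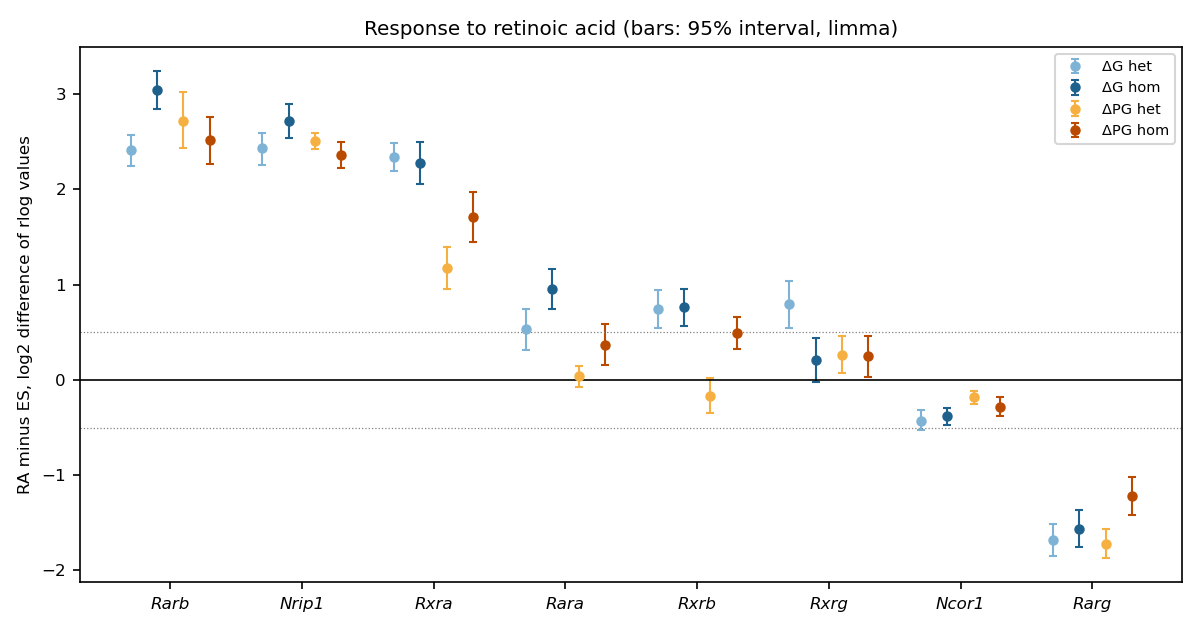
RA minus ES difference of the rlog values (log2, y axis) of each gene in het and hom cells of both lines, with 95% intervals from limma over 6 samples and dotted lines at the limits of -0.5 and 0.5. Rarb, Nrip1 and Rxra lie above and Rarg below these limits in all 4 comparisons, and Ncor1 lies between them.

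Genes of the same pathway were counted from lists that hold other known components. Of 12 direct RA targets, 11 were called higher and 1 lower in each of the 4 comparisons, with a median difference of 2.62, 2.89, 2.09 and 2.30 in het ΔG, hom ΔG, het ΔPG and hom ΔPG cells, while the median of all genes lay between 0.01 and 0.04. Cyp26a1, which degrades RA, rose by 5.88 and 5.54 in het and hom ΔG cells and by 4.60 and 4.57 in het and hom ΔPG cells. Crabp2, which carries RA to its receptors, rose by 5.25, 4.71, 3.70 and 4.04 in the same order.

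Among 17 corepressor and coactivator genes, 7 were called higher and 1 lower in both ΔG comparisons, and 5 higher and 1 lower in both ΔPG comparisons. Of all genes, 29.5%, 29.2%, 31.6% and 27.8% were called in het ΔG, hom ΔG, het ΔPG and hom ΔPG cells. The ΔPG counts of this list lay near that share, and no list was tested. Kat2b, a histone acetyltransferase, was called lower with differences of -2.45, -2.18, -1.40 and -1.80 in het ΔG, hom ΔG, het ΔPG and hom ΔPG cells, and Ep300, another acetyltransferase, rose by 1.17, 1.11, 1.13 and 0.90. Of 17 RXR partners and receptors that bind related elements, 7 were called higher and 1 lower in het ΔG, 6 and 1 in hom ΔG, 4 and 3 in het ΔPG and 6 and 1 in hom ΔPG cells, against the same shares of all genes. Nr2f2 and Nr2f1, orphan receptors that can occupy the same direct repeats, rose by 2.75 and 2.39 in het ΔG, 2.73 and 1.58 in hom ΔG, 3.04 and 2.35 in het ΔPG and 2.83 and 2.27 in hom ΔPG cells. Fibroblast markers also moved with RA: 4, 3, 4 and 4 of 5 were called higher in the same order and 0, 0, 1 and 1 lower (Thy1, -0.67 and -0.53 in het and hom ΔPG cells), and the log2 of their summed level ran from 5.04 to 5.29 in ES and from 9.46 to 9.58 in RA samples of het ΔG cells. Of 3 measured neural markers 2 were called higher and 1 lower in each comparison, and of 4 mesoderm markers 1 was called higher in each and 2, 1, 2 and 2 lower. The part of other cell types in the changes of the receptor genes was not tested.

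The next comparisons ask whether loss of the second allele changed these genes. In ΔG cells none of the 8 was called in ES (against 0.984% of all genes). An unadjusted p under 0.05 in limma was found for 4, but the share of all genes under that limit was not computed, so nothing is read from this count. With no limit on the difference 2 had an adjusted p under 0.1 (against 5.22%), Rarb and Rxra. Their hom minus het differences were -0.42 ± 0.10 and -0.48 ± 0.07 (adjusted p = 0.0739 and 0.0200, limma), with no overlap between genotypes, and Rxra passed the limit of 0.5 without hom ES replicate 2 (-0.51). In RA-treated ΔG cells 2 of the 8 were called lower in hom cells (against 1.46% called lower and 2.14% in either direction), Rxra with a difference of -0.54 (interval -0.71 to -0.37, adjusted p = 0.000150, limma) and Rxrg with -0.59 (interval -0.87 to -0.31, adjusted p = 0.00729, limma). The call for Rxra lay near the limit and was lost without hom RA replicate 1 (-0.48) or replicate 2 (-0.49) and at a fold limit of 1.5, and Rxrg is not tested once low genes are filtered out. In the same samples, Rara was higher in hom cells by 0.33 and Rarb by 0.21 (adjusted p = 0.0203 and 0.0506, limma), both under the limit, so that 4 genes had an adjusted p under 0.1, against 11.0%.

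Other genes moved with this comparison. In RA-treated ΔG cells 1 of 6 extraembryonic endoderm markers was called lower in hom cells (Dab2, -0.70), 1 of 5 fibroblast markers was called lower (Col1a2, -1.41), 1 of 3 measured neural markers higher (Tubb3, 0.99) and 1 of 4 mesoderm markers higher (Kdr, 0.57). The other 4 fibroblast markers were not called, with differences from -0.24 for Col1a1 to 0.17 for Thy1, and the neural marker Pax6 had -0.40 (adjusted p = 0.0223, limma), under the limit. The log2 summed level of the endoderm markers ran from 9.19 to 9.29 in het and from 8.85 to 8.93 in hom samples, that of the fibroblast markers from 9.46 to 9.58 and from 8.54 to 8.70, that of the neural markers from 9.30 to 9.35 and from 9.59 to 9.64, and that of the mesoderm markers from 5.86 to 5.92 and from 6.22 to 6.40. Nr2f1 was also called lower (-0.73). Their part in the differences of Rxra and Rxrg was not tested.

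In ES ΔPG cells 1 of the 8 genes was called, Rxrb, which was lower in hom cells (difference -0.61 ± 0.07, adjusted p = 0.000433, limma), against 13.2% of all genes called and 6.29% called lower. Rara, Rxra and Rarg had differences of -0.47, -0.46 and -0.35 (adjusted p = 0.00322, 0.0203 and 0.00258, limma), all under the limit, so that 4 genes had an adjusted p under 0.1, against 36.1%. These 4 genes are the members with the highest exonic GC content, 57.32% to 61.22%, while Nrip1, Ncor1 and Rarb have 43.43%, 46.23% and 48.80% and differed by 0.08, 0.06 and 0.09. Over 11904 genes the hom minus het difference had an r of -0.705 with exonic GC content, with a median difference of 0.59 in the 10% of genes with the lowest and of -0.45 in the 10% with the highest GC content. After this trend was removed from each sample, the difference was -0.10 for Rxrb (adjusted p = 0.286, limma), 0.03 for Rara, -0.08 for Rxra and 0.10 for Rarg, and Rxrb was no longer called. With the trend removed 883 of the 11904 genes were called, against 2784 of the same genes as deposited. The same step turned the differences of Nrip1 and Ncor1 to -0.26 and -0.10 (adjusted p = 0.0235 and 0.0185, limma), farther from 0 than as deposited but under the limit, and left Rarb at 0.08. Rara passed the limit without hom ES replicate 2 (-0.56) or het ES replicate 2 (-0.51), and Rxra without hom ES replicate 2 (-0.54) or het ES replicate 3 (-0.57). Markers were also counted in this comparison. Of 3 measured neural markers, 2 were called lower in hom cells (Tubb3, -0.72, and Nes, -0.65), while Pax6 had 0.16. Their log2 summed level ran from 9.28 to 9.29 in het and from 8.58 to 8.67 in hom samples. Of 6 markers of undifferentiated ESCs, 1 was called lower (Pou5f1, -0.52), with a log2 summed level from 13.33 to 13.37 and from 13.12 to 13.13. The other 5 were not called: Nanog had 0.11, Sox2 0.07, Klf4 -0.00, Zfp42 -0.14 and Esrrb -0.35. Marker values are given without removal of the GC trend. The part of these markers and of the GC trend in the difference of Rxrb was not tested. In RA-treated ΔPG cells the hom minus het difference had an r of -0.001 with exonic GC content. No gene of the 8 was called there (against 0.846% of all genes), and the differences ran from -0.14 for Rara to 0.15 for Rarg. None had an unadjusted p under 0.05 in limma, a limit for which no share of all genes was computed. In these samples 3 of 6 extraembryonic endoderm markers were called lower in hom cells, among them Gata4 (-0.80) and Dab2 (-0.60). Col3a1 (-0.67) of 5 fibroblast markers and Klf4 (-0.61) of 6 markers of undifferentiated ESCs were also called lower. The median differences of these 2 lists were -0.00 and -0.02. Sox2 was higher in hom cells by 0.42 (adjusted p = 0.0466, limma), under the limit. Col1a2 ran from 7.81 to 7.86 in het and from 8.00 to 8.12 in hom samples.

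**Figure D4:**
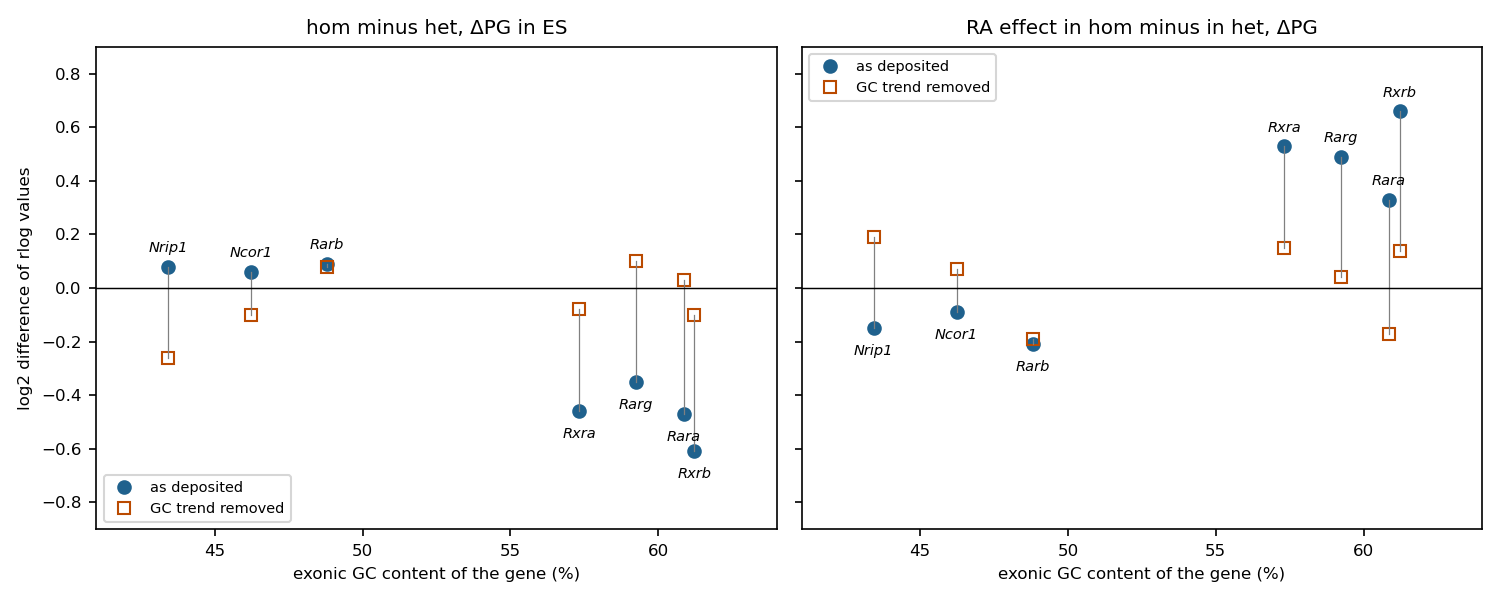
Log2 difference (y axis) of the 7 genes other than Rxrg against their exonic GC content (x axis, %), hom minus het in ES ΔPG cells (left) and the RA effect in hom minus that in het ΔPG cells (right), as deposited and with the GC trend of each sample removed. The GC-rich genes Rxra, Rarg, Rara and Rxrb lie apart from 0 as deposited and nearer to it once the trend is removed, while Nrip1 lies farther from 0 once it is removed.

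An interaction term, fitted on all 12 samples of each line, asked whether genotype altered the response to RA. In ΔG cells 2 of the 8 genes were called (against 2.38%), 1 positive and 1 negative (against 1.19% and 1.18%). The rise of Rarb was larger in hom than in het cells by 0.63 ± 0.12 (interval 0.38 to 0.88, adjusted p = 0.00239, limma), and 0.64 with the GC trend removed. Its hom minus het difference was -0.42 in ES and 0.21 in RA samples (adjusted p = 0.0739 and 0.0506, limma), neither called. The larger part of this interaction thus lay in the ES samples. The rise of Rxrg was smaller in hom cells (difference -0.59 ± 0.16, adjusted p = 0.0402, limma), with the limit on its SE and adjusted p given above. The interaction of Rara was 0.43 (adjusted p = 0.114, limma) and was called without het ES replicate 3 (0.55), hom ES replicate 3 (0.51) or hom RA replicate 3 (0.53). For Rxra, whose level was lower in hom cells in both states, the interaction was -0.06 (interval -0.32 to 0.20).

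In ΔPG cells 2 of the 8 genes were called (against 13.9%, and 6.72% in the positive direction), Rxrb with 0.66 ± 0.11 (adjusted p = 0.000554, limma) and Rxra with 0.53 ± 0.17 (adjusted p = 0.0310, limma), both with a larger RA effect in hom cells. The hom minus het differences of Rxrb and Rxra were -0.61 and -0.46 in ES samples. In RA samples they were 0.05 and 0.07 (adjusted p = 0.863 and 0.850, limma). The interactions thus lay mostly in the ES samples and are not separate from the ES differences given above. Over 11904 genes the interaction had an r of 0.695 with exonic GC content, and it shares the ES samples with the r of -0.705 above. With the GC trend removed the interaction was 0.14 for Rxrb and 0.15 for Rxra (adjusted p = 0.361 and 0.457, limma), and neither was called. Rara turned from 0.33 to -0.17 and Nrip1 from -0.15 to 0.19. Of the 11904 genes, 1117 were called with the trend removed and 2976 as deposited. The part of the GC trend in these interactions was not tested. The call for Rxra was also lost with quantile normalization (0.49), at a fold limit of 1.5, and without het ES replicate 2 (0.44), hom ES replicate 3 (0.45), hom RA replicate 2 (0.48) or hom RA replicate 3 (0.46). Rarg had 0.49 (adjusted p = 0.00807, limma) and 0.04 with the GC trend removed. It was called without het ES replicate 1 (0.52), hom ES replicate 1 (0.52) or 3 (0.53), het RA replicate 1 (0.55) or 2 (0.50), or hom RA replicate 1 (0.58), and with quantile normalization (0.52). With Rara (0.33), 4 genes had an adjusted p under 0.1, against 29.1%. For Rarb the interaction in ΔPG cells was -0.21 (interval -0.60 to 0.18).

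The order of the group means followed treatment for Rarb, Nrip1, Rxra and Rarg in both tables. For Rarb in ΔG cells the order was hom RA, het RA, het ES and hom ES, with no overlap between neighbours, and in ΔPG cells it was het RA, hom RA, hom ES and het ES, where the 2 ES groups overlapped. For Nrip1 the 2 RA groups overlapped in both tables, and for Rarg the 2 RA groups overlapped in both tables. For Rxrb in ΔPG cells het ES, hom RA and het RA overlapped as neighbours and hom ES lay apart below them.

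The genes most like each called member were ranked by the smaller of the Pearson correlations over the 12 samples of each table, among 11766 genes that averaged 3 or more in both. For Rarb they were Zeb2, Nrp1 and Suv39h1 (smaller r 0.997, 0.995 and 0.994). For Nrip1 they were Fzd4, Pxdn and Thbs1 (0.998, 0.998 and 0.997), for Rxra Ttc21b, Il17rd and Cotl1 (0.982, 0.982 and 0.981), and for Rarg Atp5b, Lars and Slc25a39 (0.991, 0.990 and 0.989). The values were lower for the genes that moved less: 0.926, 0.917 and 0.917 for Grb7, Lama5 and Actr1b with Rara, 0.942, 0.927 and 0.923 for Hdac5, Tcf3 and Trabd with Rxrb, and 0.893, 0.888 and 0.880 for Taok3, Ptpn3 and Tap1 with Rxrg. The 12 samples of a table share the split between ES and RA, and these correlations are given as a description only.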

How the data were processed

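RNA-seq libraries (TruSeq Stranded Total RNA, Ribo-Zero) were read from both ends (100 bp). According to the methods and the submitters' processing notes, the authors aligned reads to NCBI37/mm9 with TopHat2 2.1.0, removed duplicates with Picard, counted per gene with HTSeq 0.6.0 and deposited rlog values from DESeq2 1.14.1, on the log2 scale. Whether the transformation was blind to the groups is not given in the sources used here. No depth or counting interval can be given.

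Genes that varied in a table (22048 in ΔG, 21979 in ΔPG) were fitted in R 4.3.3 with limma 3.58.1 (lmFit, eBayes with a variance trend), on the 6 samples of a comparison or 12 for the interaction. Calls needed a Benjamini-Hochberg adjusted p under 0.1 over all genes and a difference over 0.5. Fits were tested on simulated data. Exonic length and GC content came from GENCODE vM1 on NCBIM37. Alternatives were quantile normalization, median centring, a mean rlog value of at least 3, other limits, no variance trend, removal of the GC trend (lowess, on genes that passed the same filter, so without Rxrg), the replicate block, all 12 samples, and leaving out each sample. Python 3.11.15, numpy 2.4.6, pandas 2.3.3 and matplotlib 3.10.9 gave shares, correlations and figures. The named genes are the 8 members, 5430416N02Rik, Cyp26a1, Crabp2, the list genes with the largest called differences, and the 3 genes most like each called member, and some other genes of the rule are not reported here. Members and lists were chosen with earlier results of these data known. RIP-seq, Capture-C and 4C-seq were not used here.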

Additional observations from a re-analysis of the deposited data

Results flagged for a closer look

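The response to RA differed between hom and het cells, by the test of the interaction, for 4 results. In ΔG cells the difference was 0.63 for Rarb and -0.59 for Rxrg, the latter at rlog values below 1.6. In ΔPG cells it was 0.53 for Rxra and 0.66 for Rxrb, and these were 0.15 and 0.14 with the GC trend removed. In RA samples alone, Rxra and Rxrb differed between the ΔPG genotypes by 0.07 and 0.05, and Rarb between the ΔG genotypes by 0.21.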

How the results depend on the processing

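Of 1330 member values under the alternatives, 1271 kept their call, 36 gained one and 23 lost one, and no called value changed sign; 46 values called neither way did, 27 of them in ΔPG cells. Without a limit on its size, the difference was called for 8 genes under RA in hom ΔPG cells, 2 for genotype in ES ΔG, 4 in RA ΔG, 4 in ES ΔPG and 4 for the ΔPG interaction. The shares of all genes were 52.0%, 5.22%, 11.0%, 36.1% and 29.1% in that order. An adjusted p under 0.05 and a fold over 1.5 left 1 in RA ΔG and 1 in the ΔPG interaction. Of all genes, 275 of 22048 and 2104 of 21979 were called at these limits. A mean rlog of at least 3, which takes Rxrg out of the fit, left 1 in RA ΔG and 1 in the ΔG interaction. Of all 11997 genes of that filter, 363 and 539 were called. Removing the GC trend, with or without the replicate block, was run on the genes of that filter and so also without Rxrg, and left 1 in RA ΔG, 0 in ES ΔPG, 1 in the ΔG interaction and 0 in the ΔPG interaction, where the ΔG counts equal those of the filter alone. Without the block, 352 of 11997, 883 of 11904, 536 of 11997 and 1117 of 11904 genes were called in that order. Leaving out single samples gave 0 to 1 in ES ΔG, 1 to 2 in RA ΔG, 1 to 3 in ES ΔPG, 2 to 3 in the ΔG interaction and 1 to 3 in the ΔPG interaction. Over all genes it gave 146 to 201, 471 to 532, 2799 to 3012, 419 to 472 and 2938 to 3150. It gave 6 to 7, 6, 4 and 4 to 5 for the RA effect in het ΔG, hom ΔG, het ΔPG and hom ΔPG cells. Over all genes these were 6515 to 6578, 6426 to 6561, 6921 to 6992 and 6077 to 6181. Under the other alternatives the counts for the RA effect ran from 5 to 8, 5 to 7, 4 to 6 and 4 to 8 in the same order. Over all genes these ran from 5440 to 12012, 5450 to 11772, 5407 to 12607 and 4982 to 11424. Apart from the loss of Rxrg to the filter, the cause was not tested.

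Samples sharing a replicate number did not deviate together (r from -0.033 to 0.010 in ΔG and from -0.026 to 0.085 in ΔPG, 0 of 18 pairs over 0.1 in each). The replicate block alone changed 0 member calls. Its counts for the RA effect stayed at 7, 6, 4 and 4, those for genotype at 0, 2, 1 and 0, and those for the interaction at 2 and 2. Over all genes it called 6500, 6434, 6947 and 6118 for the RA effect. For genotype it called 44, 473, 2883 and 112, and for the interaction 519 and 3040. Depth is unknown, so no counting error can be given for low genes such as Rxrg.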
